A study of Mus musculus with 9 samples.

Results

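The endothelin system consists of 3 peptide genes (Edn1, Edn2, Edn3), 2 receptor genes (Ednra, Ednrb) and 2 genes of converting enzymes (Ece1, Ece2), and the levels of their transcripts were followed in mouse retina under white light-emitting diode (LED) light. Within this system the genes were taken by symbol, whatever their values, but the system was chosen with earlier results of these data known. Of the 7 genes, 6 had at least 1 probe set with a single gene symbol in the annotation of the array, 14 probe sets in all, and Ednra was not analysed here. The main probe set of a gene was the one with the highest mean signal over the 9 arrays, and all 6 main probe sets passed the intensity filter (a mean of at least 5.91 on the log2 scale), among 12761 genes tested of 18193 with a single-symbol probe set.

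Arrays of 3 groups were compared, each with n = 3 pools of 3 right-eye retinas from female Babl/c mice (BALB/c, an albino strain) aged 10 weeks. The 7378K group lived under cold white LED light and the 2954K group under warm white LED light, the numbers being correlated colour temperatures, both at 1000 lx for 14 days with 12 h on and 12 h off. The control group was kept in a dark environment for the same 14 days. For controls the labels repeat the hours but state no illuminance, so any light in their environment is unknown. No transgene or treatment other than light is named. The neural retina had been separated from the pigment epithelium, and each array stood for 1 pool.

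Endothelins are short vasoactive peptides that are cut from larger precursors, first by furin-type proteases and then by endothelin converting enzymes. They act on a pair of G protein-coupled receptors, of which the type A receptor sits mainly on vascular smooth muscle and the type B receptor on endothelium, astrocytes and Müller glia. In the rodent retina, endothelin 2 is known as a transcript that injured photoreceptors produce, and the type B receptor of Müller glia as its likely receiver.

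Signals are deposited log2 values per probe set, so a difference of 1 is a doubling, and levels of different probe sets cannot be set against each other. Array medians ran from 6.77 to 7.03. The 3' minus 5' difference of the Gapdh and beta-actin control probe sets, which grows when 5' ends of transcripts are lost, was 1.55 to 1.80 on the 7378K arrays, 0.21 to 2.78 on the 2954K arrays and 0.20 to 0.42 on the control arrays. The third array of every group stood apart in Crybb2 and was the highest of its group in Tyrp1, a melanocyte gene. Crybb2, a lens crystallin gene, measured 9.99, 12.63 and 14.75 on the third 7378K, 2954K and control arrays, against 3.08 to 7.69 on the other 6. Rpe65, a defining gene of the pigment epithelium, measured 9.78 to 11.34 under 7378K light, 9.92 to 11.83 under 2954K light and 9.73 to 11.67 in controls, so transcripts of that layer were measured in all groups. Rpe65 did not follow the third arrays, since 2954K 3 was the lowest of its group.

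The ligand genes are shown by the 250 bases before their annotated starts, because of the 3 ligands only Edn2 passed a test between light and control, while Edn1 and Edn3 did not. The sequences are RefSeq's for mouse build GRCm38.p6, on the plus strand, and lie at chr4:120160956-120161205 (Edn2), chr13:42301226-42301475 (Edn1) and chr2:174760369-174760618 (Edn3). Capitals mark matches to the motifs searched.
Edn2: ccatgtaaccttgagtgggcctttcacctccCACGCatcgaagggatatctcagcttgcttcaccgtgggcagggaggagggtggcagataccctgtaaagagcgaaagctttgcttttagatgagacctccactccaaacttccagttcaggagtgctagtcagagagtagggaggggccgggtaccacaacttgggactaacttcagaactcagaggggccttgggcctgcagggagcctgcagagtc
Edn1: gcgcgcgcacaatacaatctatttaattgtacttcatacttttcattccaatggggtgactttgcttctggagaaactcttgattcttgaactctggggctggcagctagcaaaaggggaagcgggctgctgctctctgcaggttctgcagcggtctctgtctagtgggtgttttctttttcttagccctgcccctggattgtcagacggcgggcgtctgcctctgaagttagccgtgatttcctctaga
Edn3: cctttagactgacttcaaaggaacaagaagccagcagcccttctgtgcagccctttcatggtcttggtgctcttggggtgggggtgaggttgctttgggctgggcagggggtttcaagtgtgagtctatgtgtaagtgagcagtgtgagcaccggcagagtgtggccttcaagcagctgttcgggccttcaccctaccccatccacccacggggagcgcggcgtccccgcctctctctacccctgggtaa
The motifs were searched on both strands, and no matches overlapped. They were the STAT motif TTCNNNGAA, the AP-1 motif TGANTCA, the hypoxia response cores ACGTG and GCGTG, the photoreceptor homeobox motif GGATTA, the C/EBP motif TTNNGNAA and the TATA motif TATAAA. The Edn2 stretch held 1 match, to GCGTG as CACGC on the other strand, from 219 to 215 bases before the start. The Edn1 and Edn3 stretches held 0 matches. Among 27025 stretches of the same length, 1 per gene, GCGTG stood in 28.2%, ACGTG in 16.6%, TATAAA in 13%, TTCNNNGAA in 7.18%, TGANTCA in 6.87%, GGATTA in 6.38% and TTNNGNAA in 36.9%. A match describes letters only, and the absence of one says nothing about a factor.

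The ligands came apart under light. Edn2 was about as bright in both LED groups and far dimmer in controls, and it was the only one of the 6 measured genes to pass the test. It measured 13.30, 13.20 and 12.90 in the 7378K pools, 12.60, 12.68 and 12.96 in the 2954K pools, and 8.18, 6.53 and 7.81 in the control pools. All 6 LED arrays lay above all 3 controls, and the gap between the lowest LED array and the highest control was wider than the spread within any group. As linear signals these were 7643 to 10060 under 7378K light, 6187 to 7951 under 2954K light and 92.1 to 290 in controls, on arrays scaled to a trimmed mean signal of 500.

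**Figure D1:**
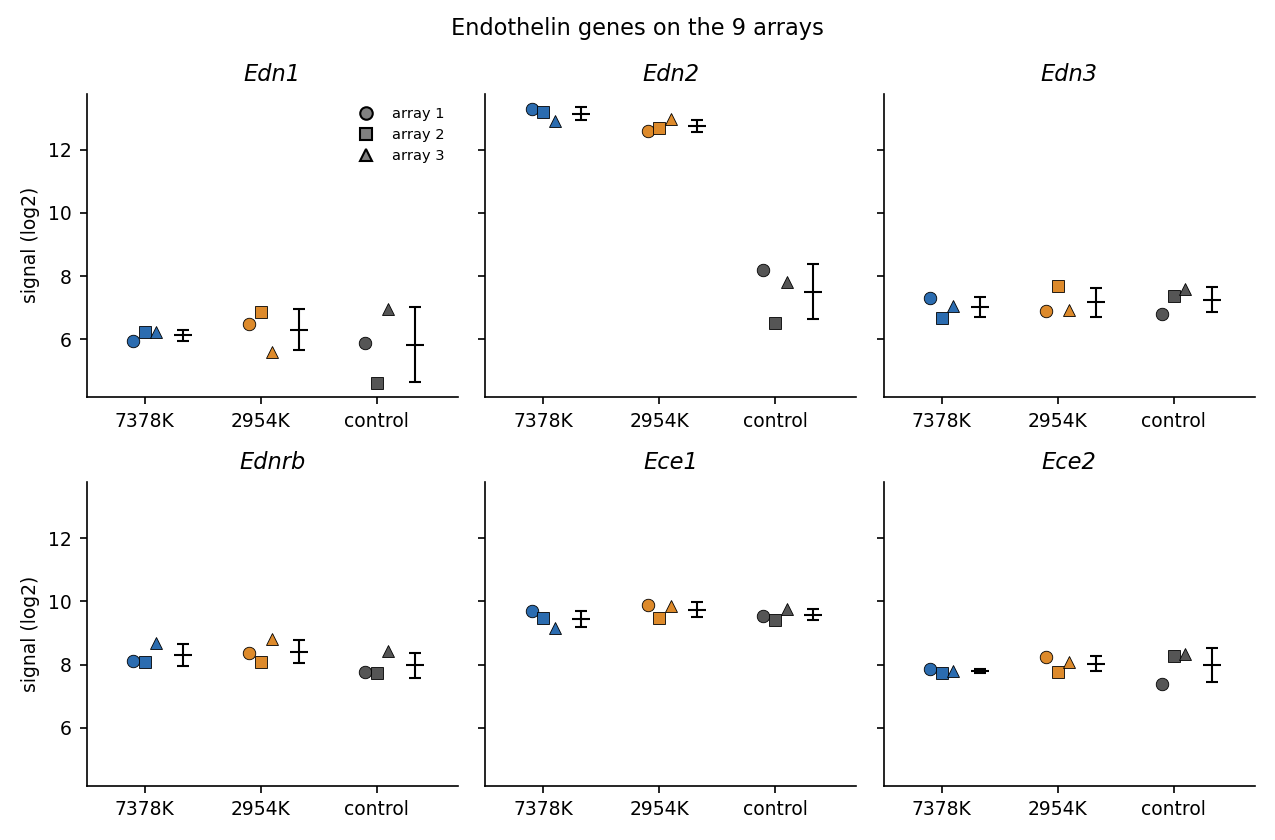
Signal (log2) of the main probe set of 6 endothelin genes on the 9 arrays, with 1 panel per gene. Points are arrays (pools), marked by array number; the bar beside them is the mean ± SD of the group (n = 3). The LED arrays of Edn2 sit between 12.60 and 13.30 and its controls between 6.53 and 8.18, whereas the groups of the other genes overlap.

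Against control, Edn2 rose 49.5-fold under 7378K light (95% confidence interval 30.7 to 79.8; log2 difference 5.63 ± 0.32, SE; limma adjusted p = 1.1e-06, n = 3 pools per group). Under 2954K light it rose 37.8-fold (23.4 to 60.9; log2 difference 5.24 ± 0.32; limma adjusted p = 3.5e-06). Calls were made at an adjusted p under 0.05, with adjustment over all genes tested. Of these, limma called 3.52% in the 7378K comparison (2.36% higher and 1.16% lower) and 1.22% in the 2954K comparison (1.03% higher and 0.188% lower), and 1 of the 6 endothelin genes, Edn2, in each. Groups without overlap were found for 36.4% and 15.2% of all genes and for 1 of the 6 endothelin genes, again Edn2. Both comparisons use the same 3 controls. Over both LED groups together Edn2 stood 43.2-fold (28.6 to 65.4) above control (limma adjusted p = 3.13e-07), in a comparison that called 3.46% of all genes. Edn2 had the largest difference of the 12402 and 12390 genes whose means in both groups compared passed the filter, ahead of Fgf2os at 4.54 and 4.01. Its control pools spanned 3.14-fold, against 1.32-fold in the 7378K pools and 1.29-fold in the 2954K pools, with control 2 the lowest. Edn2 kept its call in 23 of 23 alternative fits of each comparison. Its log2 differences were 5.14 to 5.97 under 7378K light and 4.75 to 5.58 under 2954K light, lowest without control 2. The only single-symbol probe set of Edn2 is 1449161_at, so fits with another probe set rule could not move its log2 difference. Neither could another filter or leaving out an array of the group not compared. No other probe set was there to check it.

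The 3' minus 5' difference was higher on all 7378K arrays than on any control, while 2954K 2, at 0.21, lay within the control range. It varied little within the 7378K and control groups. A fit with it as a covariate therefore cannot tell it apart from 7378K light. With this covariate the log2 difference of Edn2 was 5.62 in the 7378K and 5.24 in the 2954K comparison. The same difference of dap, a bacterial spike-in RNA, was 2.55 to 2.81 on 7378K, 0.89 to 2.73 on 2954K and 0.79 to 1.63 on control arrays. It too was higher on all 7378K arrays than on any control, so a fit with it has the same limit. With dap as the covariate the log2 difference of Edn2 was 5.24 and 5.07. Without the third array of each group it was 5.90 and 5.28. All of these passed the limma test. Pools of whole retina were measured, so more Edn2 transcript per cell and more cells that hold it cannot be told apart. The summed signal of 14 rod genes was 232341 to 265136 under 7378K light, 226767 to 287211 under 2954K light and 257854 to 305058 in controls. Median log2 differences over the rod list were -0.26 and -0.16. The summed signal of 9 cone genes was 41674 to 43120, 41130 to 44957 and 35361 to 41475, so 7378K arrays did not overlap the controls. Bright genes weigh most in this sum, such as Gnb3 at 13.74, 13.69 and 12.71. Of the cone genes 1 rose (Gnb3, limma adjusted p = 0.00012 and 0.00023), 0 fell and 8 did not pass in each LED comparison. Median log2 differences over the cone list were -0.09 and 0.15. Over both LED groups together 1 rose (Gnb3) and 1 fell (Opn1mw, limma adjusted p = 0.0409), so no direction is given for the cone list. The sum of 10 pigment epithelium genes was 26453 to 47483, 26608 to 53277 and 20972 to 47526 in the same order. The rod and pigment epithelium sums overlapped between all groups. Gene by gene, 4 of the 14 rod genes fell and 0 rose under 7378K light, and 0 passed under 2954K light. The 4 were Cnga1, Cngb1, Rom1 and Prph2, of the rod channel and outer segment discs (limma adjusted p of 0.00682 to 0.0317). Over all genes 2.36% rose and 1.16% fell under 7378K light, and 1.03% rose and 0.188% fell under 2954K light. The rod count was 0 with either 3' minus 5' covariate and without the third arrays, and 1 with median centring, without 7378K 1 or without control 2. It was 2 without 7378K 2, 7378K 3, control 1 or control 3. It was 5 with quantile normalization, with array weights, without 2954K 1 or without 2954K 2, and 6 with only the 2 groups compared. Under 2954K light 1 rod gene fell without 2954K 2. The part of the rod and cone values in the Edn2 result was not tested. The summed signal of 12 microglia genes moved with Edn2, at 9211 to 10043 under 7378K light, 8454 to 9034 under 2954K light and 2497 to 3523 in controls. Gene by gene, 8 of 10 tested rose and 0 fell in each LED comparison. Cx3cr1 (log2 differences 0.60 and 0.68) and P2ry12 (-0.44 and -0.08) did not pass. Among those that rose, C1qc and Aif1 had control means of 5.02 and 5.36, below the filter value. The part of the microglia genes in the Edn2 values was not tested.

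Edn1, the ligand best known from vascular endothelium, lay close to the filter value of 5.91. It measured 5.93, 6.22 and 6.23 in 7378K pools, 6.47, 6.87 and 5.59 in 2954K pools, and 5.89, 4.61 and 6.97 in control pools. The control arrays held both the lowest and the highest value, so the groups overlapped completely. The log2 difference was 0.31 ± 0.56 under 7378K light (SE; limma adjusted p = 0.789) and 0.49 ± 0.56 under 2954K light (adjusted p = 0.745). The 95% intervals run from -0.92 to 1.53 and from -0.74 to 1.71, so rises of more than a doubling were not resolved from none. The summed signal of 11 endothelial genes was 4190 to 4708 under 7378K light, 4209 to 4957 under 2954K light and 4127 to 4397 in controls.

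Edn3, a ligand needed for pigment cells and enteric neurons in the mouse, was read by 4 probe sets that did not follow each other. The main one carries a name ending in x_at, which marks probes that can also match other sequences, so its level is uncertain. It measured 7.30, 6.68 and 7.07 in 7378K pools, 6.88, 7.69 and 6.93 in 2954K pools, and 6.81, 7.36 and 7.58 in control pools. The groups overlapped, and the log2 difference was -0.23 ± 0.31 under 7378K light (adjusted p = 0.705) and -0.08 ± 0.31 under 2954K light (adjusted p = 0.938, both limma). The other 3 probe sets had means of 3.76 to 4.54, below the filter value, and 0 of them passed when every probe set was tested. The third array was the highest of its group in 1 of 3 groups on the main probe set. It was so in 3 on 1421136_at, in 2 on 1438696_at and in 1 on 1441923_s_at. Only the dim set 1421136_at thus had the pattern of Tyrp1 in all groups. It measured 4.97, 6.08 and 5.22 on the third 7378K, 2954K and control arrays, where Tyrp1 measured 9.41, 12.15 and 10.40. The part of pigment cells in the Edn3 values was not tested.

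**Figure D2:**
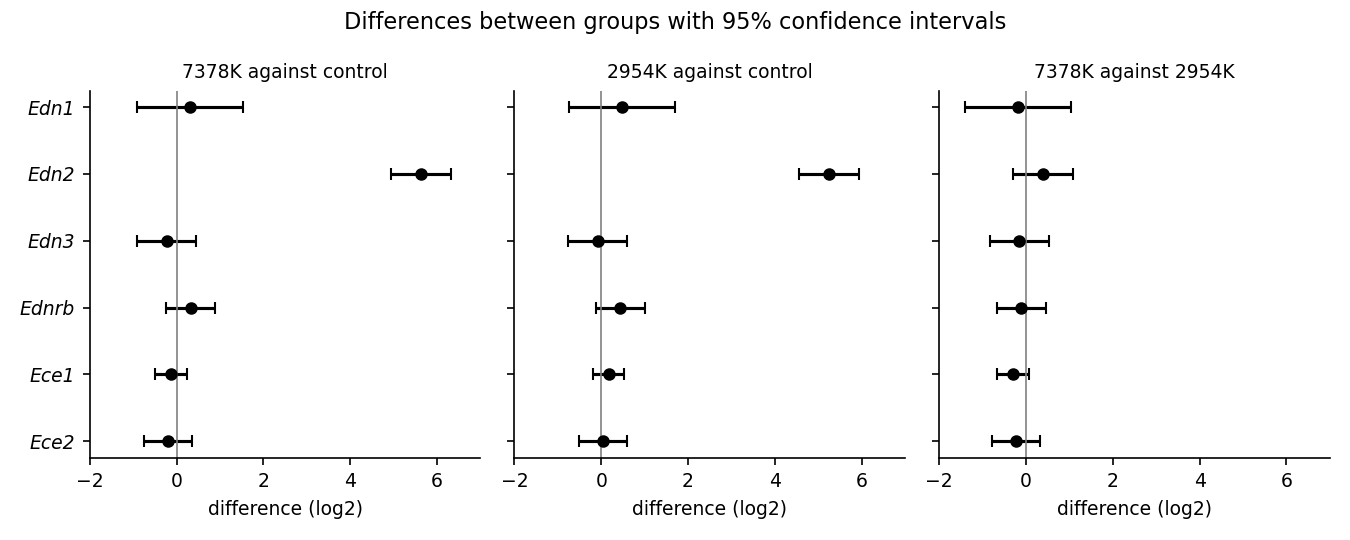
Difference in signal (log2) of each endothelin gene in 3 comparisons, with the first-named group minus the other. Points are limma estimates and bars are 95% confidence intervals. Edn2 stands at 5.63 and 5.24 against control with intervals far from 0, and every other interval, and that of Edn2 between the LED groups, includes 0.

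Of the receptors, Ednrb was measured. The gene encodes the type B receptor, which binds all endothelins. Its main probe set gave 8.11, 8.08 and 8.70 in 7378K pools, 8.35, 8.08 and 8.80 in 2954K pools, and 7.76, 7.73 and 8.43 in control pools. All 6 LED arrays lay above the first and second control arrays, but control 3 lay above 4 of the 6 LED arrays. The log2 difference was 0.32 ± 0.26 under 7378K light (limma adjusted p = 0.492) and 0.44 ± 0.26 under 2954K light (limma adjusted p = 0.495), or 1.25-fold (0.846 to 1.85) and 1.35-fold (0.915 to 2.00).

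The Ednrb probe sets disagreed in direction. Probe set 1423594_a_at averaged 5.83 ± 0.50 in 7378K pools, 6.15 ± 0.31 in 2954K pools and 6.19 ± 0.22 in controls (SD, n = 3). Probe set 1426314_at gave 5.71, 5.34 and 5.89 in 7378K pools, 5.61, 6.85 and 5.93 in 2954K pools, and 6.02, 6.73 and 6.40 in control pools. On 1426314_at every 7378K array lay below every control, with a log2 difference of -0.74 that did not pass (limma adjusted p = 0.482 over all probe sets). Of all genes tested, 36.4% had no overlap between these groups. With the mean of the 3 probe sets, the 7378K difference of Ednrb was -0.26 in place of 0.32. No direction is therefore given for Ednrb.

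**Figure D3:**
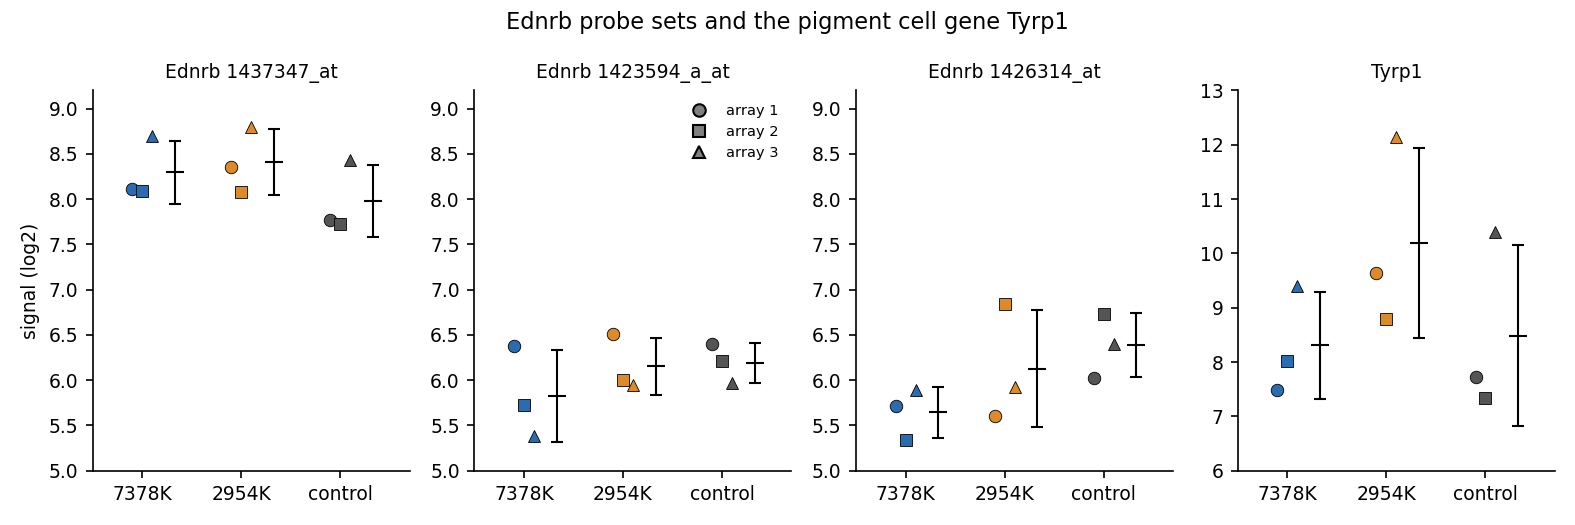
Signal (log2) of the 3 Ednrb probe sets and of Tyrp1 by array. Points are arrays marked by number, and bars are mean ± SD (n = 3). The third array is the highest of its group for 1437347_at and for Tyrp1 and the lowest for 1423594_a_at, in all 3 groups.

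Cell type markers moved beside the main Ednrb probe set. The third array of each group was highest for it, as for Tyrp1 and Crybb2. Summed over 9 melanocyte genes, the third arrays gave 3969 under 7378K light, 22749 under 2954K light and 9389 in controls, and the other arrays 1860 and 2301 (7378K), 3165 and 5163 (2954K), and 1822 and 2129 (control). Summed over 14 Müller glia genes, the signal was 90085 to 97163 under 7378K light, 88046 to 92474 under 2954K light and 68391 to 83214 in controls. The sums of LED and control arrays did not overlap, but a sum weighs bright genes most, such as Clu at 14.53, 14.45 and 13.60. Gene by gene, 3 rose, 0 fell and 11 did not pass under 7378K light, and 2, 0 and 12 under 2954K light. Over all genes 2.36% and 1.03% rose. Glul differed by -0.003 and -0.07, and Rlbp1 by -0.15 and -0.07. The part of either list in the Ednrb values was not tested.

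The converting enzymes cut the inactive big endothelins to the active peptides. Ece1, the broadly expressed enzyme, measured 9.69, 9.47 and 9.17 in 7378K pools, 9.89, 9.47 and 9.86 in 2954K pools, and 9.52, 9.42 and 9.77 in control pools. Its arrays stayed within a narrow band in which all groups overlapped. The log2 difference was -0.13 ± 0.17 under 7378K light (limma adjusted p = 0.697) and 0.17 ± 0.17 under 2954K light (limma adjusted p = 0.698). As ratios to control the 95% intervals were 0.712 to 1.18 and 0.874 to 1.45, the narrowest of the 6 genes. On the dim Ece1 probe set 1434177_at the 7378K arrays, at 3.59, 2.91 and 1.87, lay below the controls, at 3.88, 6.26 and 6.30. The adjusted p was 0.207 over all probe sets in limma, and 36.4% of all genes tested had no overlap in this comparison. The other dim set, 1441423_at, ran from 1.29 to 5.05 in 7378K pools, from 0.63 to 4.21 in 2954K pools and from 4.12 to 5.16 in controls, so its groups overlapped.

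Ece2, a related enzyme active at acidic pH and found mainly in neural tissue, measured 7.85, 7.75 and 7.78 in 7378K pools, 8.23, 7.76 and 8.09 in 2954K pools, and 7.38, 8.28 and 8.33 in control pools. Here too the controls held both extremes. The log2 difference was -0.20 ± 0.25 under 7378K light (limma adjusted p = 0.686) and 0.03 ± 0.25 under 2954K light (limma adjusted p = 0.968). Its other probe set, 1423358_at, gave 0.38 and -0.03, with 7378K arrays at 6.71, 7.33 and 6.99 and controls at 5.90, 6.80 and 7.19. RefSeq lists a joint Eef1akmt4-Ece2 locus under this symbol, and its transcripts were not told apart here.

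Between the LED groups, no endothelin gene passed the test. Edn2 averaged 13.13 ± 0.21 under 7378K light and 12.74 ± 0.19 under 2954K light (SD, n = 3), and the third 7378K array lay below the third 2954K array. The difference was 0.39 ± 0.32 on the log2 scale (95% confidence interval -0.30 to 1.08; limma adjusted p = 0.978), so a doubling under 7378K light lies inside the interval. The other 5 genes differed by -0.30 to -0.11, with adjusted p of 0.978 to 0.985. Over all genes limma called 0 (0%) in this comparison, while 519 (4.07%) had an unadjusted p under 0.05, and 29 were called without 2954K 1. Groups did not overlap for 8.56% of all genes and for 0 of the 6 endothelin genes.

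The genes most like Edn2 over the 9 arrays were found by the root-mean-square (RMS) difference between profiles, each gene centred on its own mean. Fgf2os, which is transcribed antisense to Fgf2, was closest at 0.667 (log2), followed by Bcl3, a regulator of NF-kB signalling, at 0.775 and Cebpd, an acute-phase transcription factor, at 0.797. Socs3, which restrains JAK-STAT signalling, stood at 0.997 and C1qc, a chain of complement C1q, at 1.14, against a median of 2.6 over all genes tested. Fgf2os measured 10.77, 10.87 and 10.97 in 7378K pools, 9.97, 10.40 and 10.67 in 2954K pools, and 6.39, 6.13 and 6.48 in control pools. These genes were chosen for their likeness, so their differences are descriptions. Bcl3 had 3 of 3 controls below the filter value and was at least 12.5-fold higher under 7378K light and at least 7.07-fold under 2954K light, and for that reason it was not in the ranking by difference given above. C1qc had 2 of 3 controls below the filter value, and its estimated rise was at least 4.90-fold and 5.24-fold. Its call was lost in 4 and 6 of 9 fits with 1 array left out (limma adjusted p up to 0.0933 without 7378K 1 and 0.136 without 2954K 3). It was also lost with the 3' minus 5' covariate (0.211 and 0.152). Of Edn2 and the 4 of these genes with a promoter in the table, 1 (Socs3) held TTCNNNGAA, 1 (C1qc) TTNNGNAA and 1 (Edn2) GCGTG in the 250 bases before the start.

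**Figure D4:**
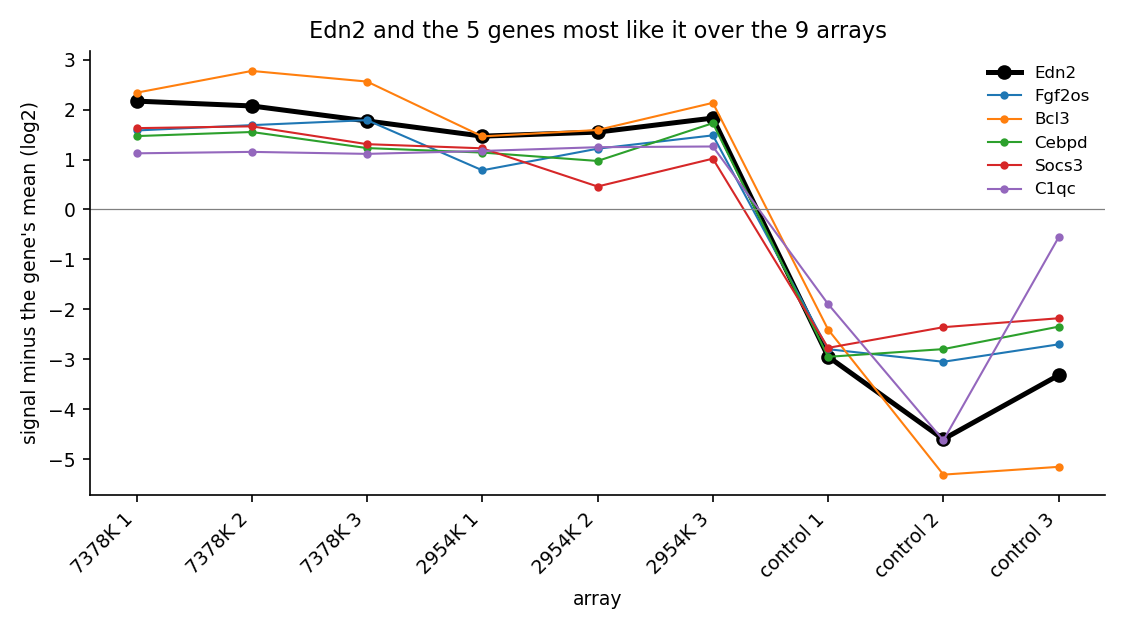
Signal of Edn2 and of the 5 genes with the smallest RMS difference from it, each minus its own mean over the 9 arrays (log2), by array. Lines join the arrays of a gene for reading only. All 6 genes lie above 0 on the LED arrays and below 0 on the controls, and C1qc has a control array close to 0.

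Genes around the endothelins were followed in 5 lists, by counts and medians only. Over all genes limma called 3.52% under 7378K light (2.36% higher and 1.16% lower). Under 2954K light it called 1.22% (1.03% higher and 0.188% lower). Of 9 tested genes for precursor processing and peptide breakdown, 0 passed in either LED comparison, with median log2 differences of 0.10 under 7378K light and -0.09 under 2954K light. The sign of these medians was not stable, at -0.13 under 7378K light with the dap covariate, and at 0.00299 without 2954K 2 and 0.0393 without the third arrays under 2954K light. With array weights 1 gene rose under 7378K light. Over all 12761 genes the medians were 0.04 and 0.01. Mmel1, a neprilysin-like peptidase, averaged 7.13 ± 0.44 in 7378K pools, 7.18 ± 0.22 in 2954K pools and 7.81 ± 0.04 in controls (SD, n = 3; limma adjusted p = 0.145 and 0.32). Pcsk4 and Pcsk5, proprotein convertases, differed by 0.44 and 0.41 under 7378K light (limma adjusted p = 0.29 and 0.31). Ctsa, a lysosomal carboxypeptidase that breaks down endothelin, differed by 0.27 (limma adjusted p = 0.22).

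Of 24 genes of receptor signalling, 1 rose and 0 fell under 7378K light and 0 passed under 2954K light, with medians of 0.19 and 0.07. The 7378K count is near the share of 3.52% called over all genes, so it is not read as a result about the list. With the mean of each gene's probe sets the medians were -0.20 and -0.10, so no direction is given for the list. The 7378K count was 6 higher without 2954K 1 or without 2954K 2, 7 with array weights or with only the 2 groups compared, and 0 without any single 7378K array, without control 1 or without control 2. The 2954K count was 3 higher without 2954K 2. Arrb2, an arrestin that switches off G protein-coupled receptors, rose 1.66-fold under 7378K light (limma adjusted p = 0.0288) and measured 9.95 ± 0.12 there, 9.70 ± 0.34 under 2954K light and 9.23 ± 0.09 in controls. The call did not hold in 5 of 9 fits with 1 array left out, in which the adjusted p went up to 0.137 (without 7378K 1). It was also lost with the 3' minus 5' covariate (0.349), without the third arrays (0.153) and with the mean of its probe sets (0.301). Gna11, a G protein subunit that couples to endothelin receptors, differed by 0.46 under 7378K light (limma adjusted p = 0.162) and by 0.52 under 2954K light (limma adjusted p = 0.238). Plcb4, a phospholipase C, differed by 0.36 under 7378K light (limma adjusted p = 0.0839), as did Rgs5, a pericyte regulator of G protein signalling (limma adjusted p = 0.073). For Plcb4 and Rgs5 the mean of the probe sets gave -0.20 and -0.74.

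**Figure D5:**
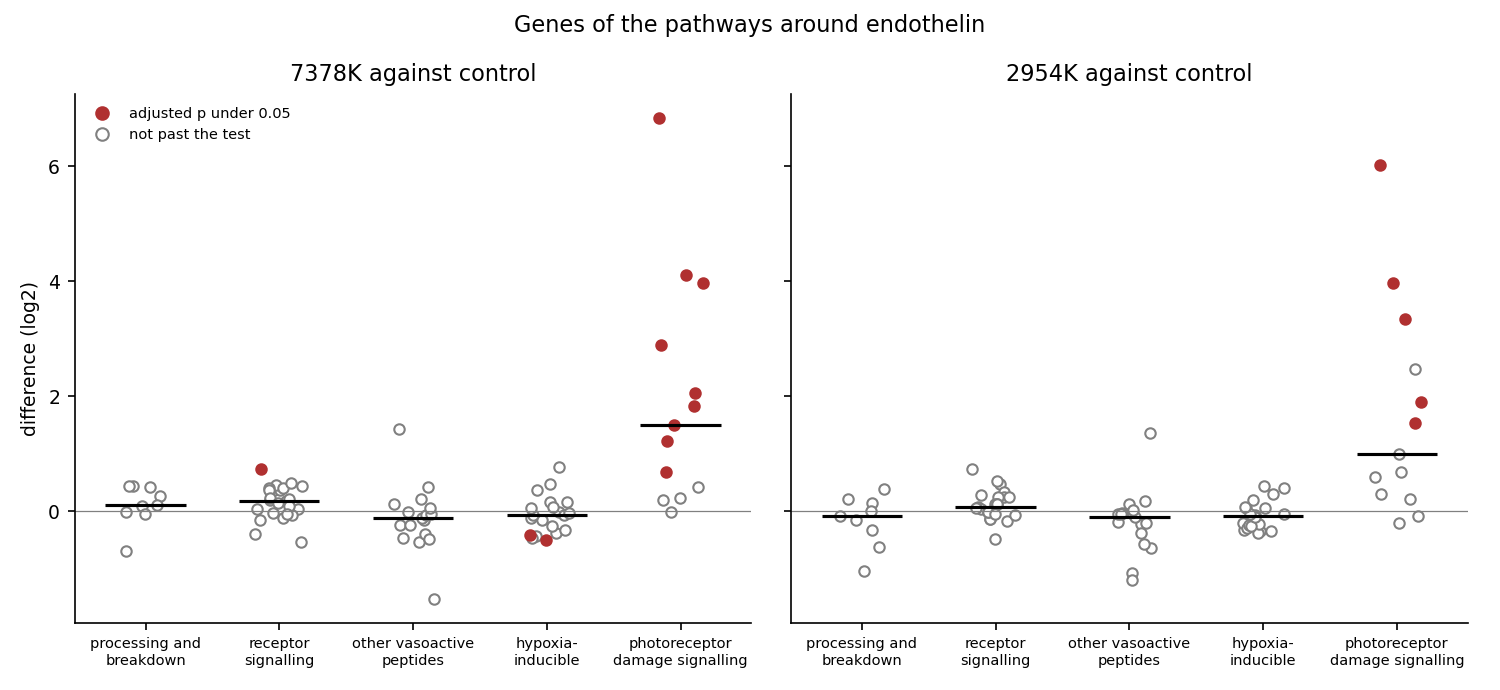
Difference in signal (log2) of each tested gene of 5 lists under 7378K and 2954K light against control. Filled points passed the limma test at an adjusted p under 0.05, open points did not, and the line is the list's median. In the list of photoreceptor damage signalling 9 of 13 and 5 of 13 genes are filled, and at most 2 in any other list.

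Of 17 genes of other vasoactive peptides and their receptors, 0 passed in either comparison, with medians of -0.12 under 7378K light and -0.10 under 2954K light. Under 7378K light 1 gene fell without 2954K 1, without 2954K 2 or with only the 2 groups compared. With the array number as a replicate block 1 also fell (Vipr2, limma adjusted p = 0.0368), and 2 fell with array weights. Under 2954K light 1 fell without 2954K 2. Vipr2, a receptor for vasoactive intestinal peptide, averaged 7.21 ± 0.04 in 7378K pools, 7.66 ± 1.10 in 2954K pools and 8.74 ± 0.18 in controls (limma adjusted p = 0.0625 and 0.291). Adcyap1, the gene of the vasoactive peptide PACAP, averaged 7.52 ± 0.38, 7.44 ± 0.26 and 6.08 ± 1.70 in the same order, so that the spread of its controls exceeded the difference. Ace, the angiotensin converting enzyme, and Ramp3, a receptor partner of adrenomedullin, differed by -0.54 and -0.47 under 7378K light (limma adjusted p = 0.503 and 0.215).

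Of 20 hypoxia-inducible genes 0 rose and 2 fell under 7378K light, and 0 passed under 2954K light, with medians of -0.07 and -0.08. Over all genes 2.36% rose and 1.16% fell under 7378K light. Without 2954K 1 the 7378K count was 1 higher and 5 lower, without 2954K 2 it was 2 higher and 4 lower, and with array weights or only the 2 groups compared 2 higher and 6 lower. It was 4 lower with quantile normalization, 3 lower with the mean of each gene's probe sets, 1 lower without 7378K 2 or without control 3, and 0 without 7378K 1, 7378K 3, control 1 or control 2. With median centring 0 passed and the median was 0.00955. Under 2954K light 2 rose and 3 fell without 2954K 2, and 1 fell with array weights. Edn2 is itself known as a hypoxia-inducible gene in other tissues. Ddit4, a stress-induced inhibitor of mTOR signalling, fell by 0.50 on the log2 scale under 7378K light (limma adjusted p = 0.0131), and Hk2, a hexokinase, fell by 0.42 (limma adjusted p = 0.0361). The calls of Ddit4 and Hk2 did not hold in 4 and 6 of 9 fits with 1 array left out, in which adjusted p reached 0.079 (without 7378K 3) and 0.136 (without 7378K 1). With the 3' minus 5' covariate their adjusted p was 0.126 and 0.113, and without the third arrays 0.198 and 0.227. Kdm3a and Ndrg1, which also belong to this response, differed by -0.37 and 0.36 under 7378K light (limma adjusted p = 0.0621 and 0.104). With the mean of its probe sets Ndrg1 stood at -0.69 under 7378K light and -0.38 under 2954K light, so no direction is given for it.

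The list of photoreceptor damage signalling to glia was drawn up with earlier results of these arrays known. Of its 13 tested genes, 9 rose and 0 fell under 7378K light, and 5 rose and 0 fell under 2954K light. Over all genes 2.36% and 1.03% rose. Bcl3, in both counts, and Lif, in the 7378K count, had 3 of 3 controls below the filter value. These genes passed the filter only through their LED arrays, so their place in the counts is no independent result. The medians were 1.503 and 0.99, against 0.73 and 0.306 with the mean of each gene's probe sets and 0.688 and 0.591 with the filter at the 60th percentile. Under 7378K light the count was 5 with the 3' minus 5' covariate, 5 with the mean of each gene's probe sets, 5 without 7378K 1, 5 without 7378K 2, 6 without 7378K 3 and 6 without the third arrays. It was also 5 with the 60th percentile filter and 6 without the intensity trend. It was 10 with array weights, with only the 2 groups compared, without 2954K 1 or without 2954K 2. Under 2954K light it was 4 with the 60th percentile filter, 6 with array weights or without 2954K 2, and 5 in the others of these. The summed microglia and Müller glia signals, given above, moved with this list, and their part in it was not tested. Cebpd averaged 12.08 ± 0.17 in 7378K pools, 11.94 ± 0.40 in 2954K pools and 7.97 ± 0.31 in controls (SD, n = 3), and rose 17.3-fold and 15.8-fold (limma adjusted p = 4.7e-07 and 9.7e-07). Socs3 rose 15.7-fold and 10.1-fold, and Stat3, the transcription factor that Socs3 restrains, 3.54-fold and 2.91-fold (limma adjusted p = 7.8e-07 under 7378K light and 3.8e-06 under 2954K light for both). With probe sets averaged per gene the log2 differences were 2.79 and 2.58 for Cebpd, 3.39 and 2.92 for Socs3 and 1.29 and 0.962 for Stat3, against 4.12 and 3.98, 3.97 and 3.34, and 1.82 and 1.54 with the main probe sets. Osmr, a receptor for oncostatin M, averaged 10.83 ± 0.11 in 7378K pools, 10.68 ± 0.09 in 2954K pools and 8.78 ± 0.27 in controls, and rose 4.16-fold and 3.73-fold (limma adjusted p = 7.1e-06 and 1.8e-05). With the mean of its probe sets the log2 difference of Osmr was 0.32 and 0.30 and did not pass. Lif, a cytokine known to be needed for the induction of Edn2 in injured mouse photoreceptors, was named after its values were seen. It averaged 7.35 ± 0.31 in 7378K pools, 6.93 ± 0.11 in 2954K pools and 4.46 ± 1.48 in controls (SD, n = 3), and 3 of 3 controls lay below the filter value. Its estimated rise was at least 2.71-fold under 7378K light (limma adjusted p = 0.0219) and at least 2.02-fold under 2954K light (limma adjusted p = 0.081, not past the test). The 7378K call of Lif was lost in 3 of 9 fits with 1 array left out (adjusted p up to 0.0931, without 7378K 2) and with the 3' minus 5' covariate (0.202).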

How the data were processed

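Retinal RNA of 9 pools was measured on 9 Affymetrix arrays. The deposited values were log2 signals per probe set, and the submitters' processing notes list MAS5 and affy, with no role, order or version. On the linear scale each array had a 2% trimmed mean of 500, so no scaling was added. Detection calls were not used here, so how far a signal lay above background is unknown, and precision is limited by the number of arrays.

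Of 45101 probe sets, 64 were controls, 34945 had 1 gene symbol in the platform annotation, 932 several and 9160 none. The brightest single-symbol probe set stood for each gene, and a gene was tested where this mean reached 5.91, the 40th percentile over all probe sets. In limma 3.58.1 (R 4.3.3), group means over the 9 arrays were estimated with 6 residual degrees of freedom and moderated by eBayes with an intensity trend. Benjamini-Hochberg adjustment ran over 12761 genes, and genes with an adjusted p under 0.05 were called. For bounds ("at least"), controls below the filter value were raised to it. Such a bound holds for the estimated fold only and does not take in the spread between pools. The fit was tested on simulated data. Motifs and figures used Python 3.11.15, pandas 2.3.3 and matplotlib 3.10.9. Nothing says whether pools came from separate litters or days, so p-values measure the spread between these pools.

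The members and gene lists were chosen with earlier results of these data known. Named were all members, up to 4 genes per list with the smallest p when the LED groups were averaged and set against control, and the 5 genes most like Edn2. Alternatives changed the filter, probe set rule, scaling, moderation, weights, covariates, block and arrays used.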

Additional observations from a re-analysis of the deposited data

How the results depend on the processing

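Edn2 kept its direction and its call against control in every alternative run, and none of the other 5 measured genes was called in any (lowest adjusted p 0.0715). For Edn2, with its only probe set, changes of the probe set rule or the filter could not move the log2 difference. With 3 pools a group, small differences of the dim genes were not resolved. The count of genes called over the whole array moved widely. With probe sets averaged per gene it was 255 under 7378K light, 82 under 2954K light and 245 for both LED groups together, without the intensity trend 207, 101 and 266, and with array weights 2688, 384 and 1941. With only the 2 groups compared it was 2174 under 7378K light and 68 under 2954K light. With the Gapdh and beta-actin 3' minus 5' covariate it was 136, 102 and 153, without the third arrays 146, 90 and 164, and with the dap covariate 71 under 7378K light and 118 for both LED groups. Leaving out 1 array gave 144 to 1517 genes under 7378K light, 79 to 897 under 2954K light, 0 to 29 between the LED groups and 164 to 1847 for both LED groups together. Under 7378K light these were 144 without 7378K 1, 180 without 7378K 2, 169 without 7378K 3, 1517 without 2954K 1, 1211 without 2954K 2, 188 without control 1 and 170 without control 2. Under 2954K light they were 897 without 2954K 2, 81 without 2954K 3, 85 without control 1 and 79 without control 2. Median centring moved the split for both LED groups together from 307 higher and 134 lower to 287 higher and 65 lower. The cause of these shifts was not tested. Of 439 values of the other 5 genes, 47 had the opposite sign to the reported value, none of them called and none over 0.302 in size. With the Gapdh and beta-actin covariate, Edn3 stood at 0.1125 under 7378K light, Ece1 at -0.007295, Ece2 at -0.134 and Edn3 at 0.180 under 2954K light, and Ece1 at -0.183 and Edn3 at 0.146 for both. With the dap covariate, Edn1 stood at -0.0824, Edn3 at 0.288 and Ednrb at -0.0242 under 7378K light, Ece1 at -0.005164, Ece2 at -0.0921 and Edn3 at 0.140 under 2954K light, Edn3 at 0.148 between the LED groups, and Ece1 at -0.270 and Edn3 at 0.214 for both. Without the third arrays, Ece1 stood at 0.108 under 7378K light, Edn3 at 0.201 under 2954K light, and Ece2 at 0.0705 and Edn3 at 0.0544 for both. With the mean of probe sets, Ece2 stood at 0.0910 and Ednrb at -0.262 under 7378K light, Ece2 at 0.0906 between the LED groups, and Ece2 at 0.0457 and Ednrb at -0.108 for both. With array weights, Edn1 stood at 0.118 between the LED groups and Ece2 at 0.0332 for both. With 1 array left out, 7378K differences ranged from -0.251 to 0.0106 for Ece1 and from -0.302 to 0.881 for Edn1. The 2954K differences then ranged from -0.274 to 0.200 for Ece2, from -0.123 to 1.06 for Edn1 and from -0.342 to 0.0828 for Edn3. Between the LED groups they ranged from -0.536 to 0.0991 for Edn1, from -0.292 to 0.111 for Edn3 and from -0.314 to 0.0816 for Ednrb. For both LED groups together they ranged from -0.0530 to 0.119 for Ece1, from -0.390 to 0.0837 for Ece2, from -0.213 to 0.970 for Edn1 and from -0.376 to 0.00776 for Edn3. The main fit did not treat the array numbers as pairs. Deviations of same-numbered arrays correlated at 0.0607 to 0.332, with 5 of 9 over 0.1. Those of other numbers correlated at -0.265 to 0.0919, with 0 of 18 over 0.1, though control 1 correlated best with 2954K 2. Same-numbered arrays were thus mostly more alike, and the cause was not tested. With the number as a replicate block, 638 genes were called under 7378K light, 163 under 2954K light, 0 between the LED groups and 622 for both together, Edn2 stood at 5.63 (limma adjusted p = 1.79e-06) and 5.24 (3.81e-06), and no call of an endothelin gene changed. Among the genes named from lists, Vipr2 passed under 7378K light with the replicate block (limma adjusted p = 0.0368, against 0.0625 without it), and the receptor signalling list had 2 genes higher in place of 1.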
